A study of Triticum aestivum with 12 samples.

Results

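Roots of the winter wheat variety Xindong23 were compared between low phosphorus (LP) and conventional phosphorus (CP), with all plants under drought. The comparison rests on 6 of the 12 arrays of the series, 3 LP arrays and 3 CP arrays, which the sample titles name by variety, phosphorus level and replicate number. They are written here as LP1 to LP3 and CP1 to CP3. The other 6 arrays hold the same pair of treatments in a second winter wheat variety, Xindong20, and serve here as a second set of plants.

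Xindong23 LP seedlings received 0.05 mmol/L phosphorus in Hoagland nutrient solution, and Xindong23 CP seedlings received 1 mmol/L. Xindong20 LP and Xindong20 CP seedlings received the same solutions. Every group was grown for 14 days and then held for 7 days in 15% polyethylene glycol (PEG-6000), a polymer that lowers the water potential of the solution and so withholds water from roots. No unstressed plants were analysed here, so the values compare phosphorus supply within drought and say nothing of drought itself. The labels give whole roots without root zones, and the series' design text calls the 3 arrays of a group biological replicates. In whole-root RNA, fewer cells of a type and less RNA per cell cannot be told apart.

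Phosphorus enters roots as inorganic phosphate. In cereals, a shortage is known to raise transcripts for phosphate transporters, secreted acid phosphatases, SPX-domain regulators and enzymes that exchange membrane phospholipids for sulfolipids and galactolipids, largely through MYB factors of the PHR family. Drought in roots is known for dehydrins and other late embryogenesis abundant (LEA) proteins, chaperones and compatible solutes. None of the phosphate starvation genes sought by symbol or synonym was among the probe sets that carry a descriptive gene name, so this well-known pathway could not be followed by name.

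The wheat array measured 61179 probe sets besides its controls. A probe set is a group of short probes against 1 transcript or transcript cluster, and its value is the deposited normalized signal, read here as log2. The platform annotation gave a gene to 1273 probe sets, and only 102 genes with 200 probe sets had a descriptive symbol. The other probe sets are given by the array's own IDs, with no gene name and no role. Array medians of the Xindong23 arrays lay between 4.24 and 4.28, and values below them are read as limited by background.

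The 3 LP arrays were less alike than the 3 CP arrays. Correlations over all probe sets were 0.939 to 0.959 between LP arrays and 0.986 to 0.992 between CP arrays. LP1 and LP2 correlated at 0.959, no more closely than LP arrays did with CP arrays, at 0.958 to 0.98. The median SD of a probe set was 0.262 in LP and 0.133 in CP (log2, n = 3 each), and 0.164 over LP1 and LP2 alone. A median SD over 2 arrays tends to read lower than one over 3, so 0.164 cannot be set directly against the CP value. Control probe sets set LP3 apart. For ubiquitin, a constitutive transcript probed near each end, the 3' signal minus the 5' signal was -0.61 on LP1, -0.65 on LP2 and 1.16 on LP3, against -0.34, -0.29 and -0.19 on CP1 to CP3. Its 3' level was 12.24 on LP3, against 12.05 to 12.23 on the other 5 arrays, while its 5' level was 11.08, against 12.42 to 12.84 on the other 5 arrays. Results that rest on LP3 are therefore given with and without it.

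LP1 and LP2 also differed from CP in the controls. The bacterial poly-A spikes, RNAs that array protocols add to a sample before labelling, averaged 6.22, 5.65 and 4.30 on LP1, LP2 and LP3, against 7.21, 6.70 and 6.94 on CP1, CP2 and CP3. All LP arrays lay below all CP arrays, and the difference was -1.56 with LP3 and -1.02 without it (log2; exact permutation test, two-sided, p = 0.1, the smallest that 3 against 3 arrays allow, and 0.233 after Benjamini-Hochberg adjustment over 7 controls). The dap spike's 3' minus 5' difference was 2.87, 3.25 and 4.74 in LP, against 2.27, 2.51 and 2.67 in CP, so the LP arrays lay above the CP arrays there. For glucose-6-phosphate dehydrogenase LP1 and LP2, at 3.81 and 3.83, lay below CP, at 4.07 to 4.52, and LP3 lay above at 6.82. The part of these shifts in the results below was not tested beyond the fits that take the spikes or ubiquitin as a covariate.

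**Figure D1:**
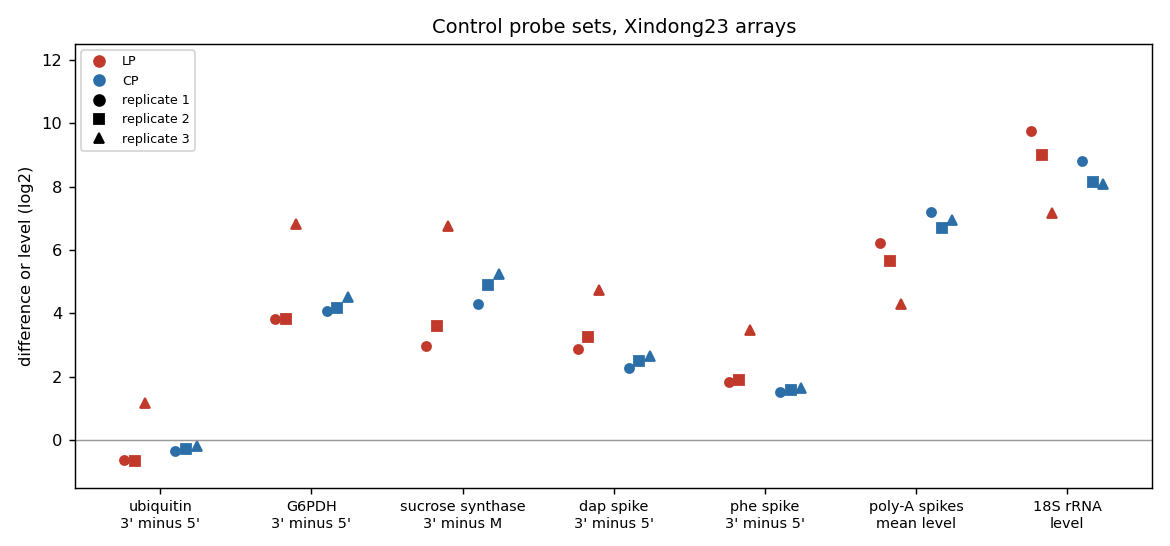
Control probe sets on the 6 Xindong23 arrays, as log2 differences between transcript ends or log2 levels, with LP (red) left of CP (blue) and 1 marker shape per replicate number. LP3 (red triangles) lies above the other arrays for the 5 end-to-end differences, and the 3 LP arrays lie below the 3 CP arrays for the poly-A spikes.

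With all arrays, 4 probe sets rose in LP roots and 0 fell, which is 0.00654% of the 61179 tested (limma, Benjamini-Hochberg adjusted p under 0.05). At an unadjusted p under 0.05 the count was 3540. The 4 belong to 3 ID stems, Ta_6744, Ta_13989 and TaAffx_112045, and none has a gene in the annotation. Without LP3 of Xindong23 no probe set passed (3473 at an unadjusted p under 0.05, smallest adjusted p 0.0564), and without the LP3 arrays of both varieties 16 passed, 10 higher and 6 lower (0.0262% of those tested, 0.0163% higher and 0.00981% lower), with the 4 among them.

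Ta_6744_2_S1_s_at had signals of 12.73, 12.86 and 13.02 on the LP arrays, against 3.37, 5.52 and 5.46 on the CP arrays. The groups lay far apart, with 7.21 log2 units between the nearest LP and CP arrays. The LP signal was 272-fold higher (log2 difference 8.09, SE 0.60, limma adjusted p = 0.00459), or at least 222-fold with each CP signal set no lower than its array's median. Without LP3 of Xindong23 the difference was 8.01 with an adjusted p of 0.0564.

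The other probe set of this stem, Ta_6744_1_S1_at, had 9.22, 9.42 and 10.66 on the LP arrays, against 3.01, 3.80 and 3.94 on the CP arrays. The groups were again far apart, but the difference of 6.18 missed the threshold (SE 0.78, limma adjusted p = 0.0608). Its CP signals were all below the array medians, so the LP signal was at least 46.0-fold higher.

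Ta_13989_1_S1_at had 9.82, 11.01 and 11.67 on the LP arrays, against 4.06, 3.78 and 3.32 on the CP arrays. It was below the array medians on every CP array and bright on every LP array. The LP signal was at least 96.3-fold higher (measured log2 difference 7.12, SE 0.72, limma adjusted p = 0.0278). Without LP3 of Xindong23 the difference was 6.70 with an adjusted p of 0.176.

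TaAffx_112045_1_S1_x_at had 6.43, 6.32 and 6.74 on the LP arrays, against 4.23, 3.46 and 4.09 on the CP arrays. TaAffx_112045_1_S1_at had 5.14, 5.01 and 5.32 on the LP arrays, against 2.83, 2.11 and 2.81 on the CP arrays. The LP arrays were close together (SD 0.22 and 0.15), the CP arrays less so (SD 0.41 for each), and the CP means were below the array medians. The LP signals were at least 4.76-fold and 1.88-fold higher, with the same measured log2 difference of 2.57 (SE 0.23 and 0.27, limma adjusted p = 0.0141 and 0.0324). They share an ID stem and may report 1 transcript. Without LP3 of Xindong23 the differences were 2.45 and 2.49, with adjusted p-values of 0.121 and 0.231.

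The 4 probe sets kept a positive difference of at least 2.25 in each of 18 alternative fits that held them, although not always past the threshold. Leaving out 1 CP array also cost calls, with 2 of the 4 left without CP1, 2 without CP2 and 1 without CP3. Without LP1 6 passed, 3 of them among the 4, and without LP2 5 passed, 2 of them among the 4. With the Xindong23 arrays fitted alone none passed (4501 at an unadjusted p under 0.05, smallest adjusted p 0.0842).

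All 4 also passed in Xindong20, whose arrays share no sample with this comparison. Both tests took their spread from the same fit of all 12 arrays, so they are not independent. Ta_6744_2_S1_s_at had 12.80, 10.74 and 12.09 on the Xindong20 LP arrays, against 3.38, 4.05 and 3.80 on the Xindong20 CP arrays. Its difference was 8.09 in Xindong23 and 8.13 in Xindong20, and the difference between the varieties was -0.05 (SE 0.85, limma adjusted p = 0.990). For Ta_13989_1_S1_at the LP minus CP difference was 7.12 in Xindong23 and 6.05 in Xindong20. For TaAffx_112045_1_S1_x_at it was 2.57 in Xindong23 and 1.80 in Xindong20.

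**Figure D2:**
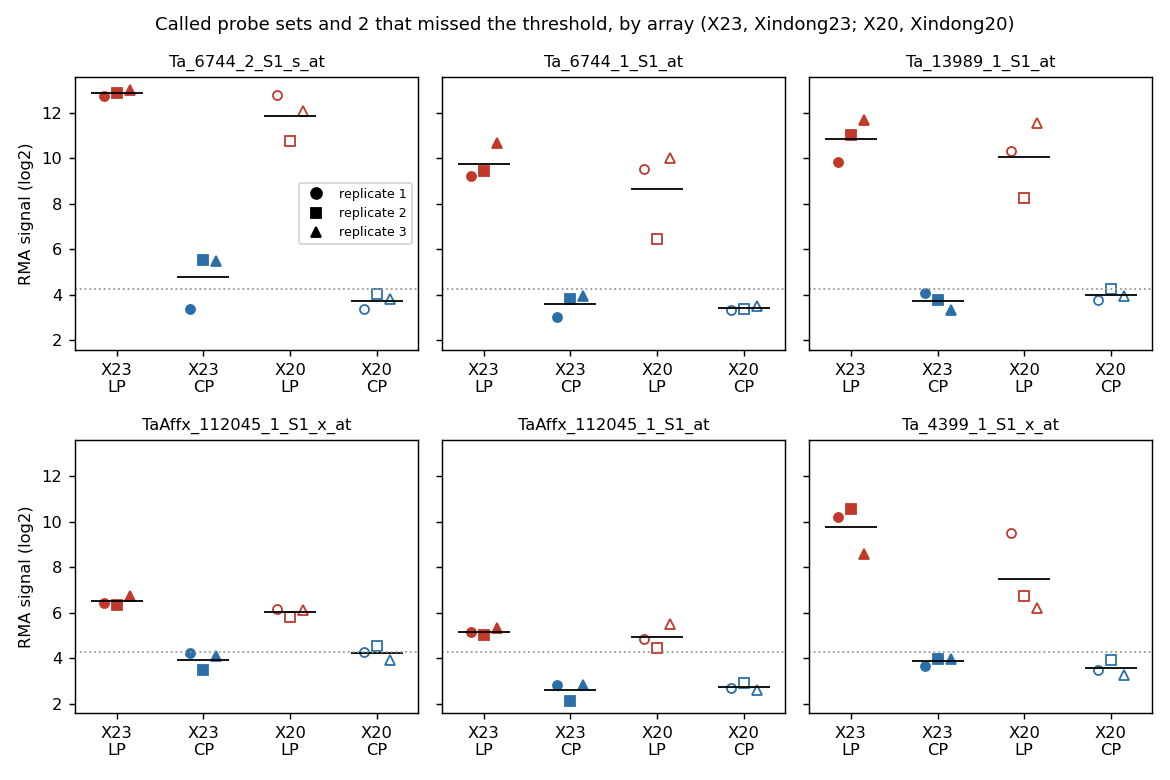
Normalized signal (log2) of 6 probe sets on the 12 arrays, Xindong23 filled and Xindong20 open, LP red and CP blue, with 1 marker shape per replicate number, group means as bars and the mean array median of the Xindong23 CP arrays dotted. LP and CP do not overlap in either variety for any of the 6, and Ta_6744_2_S1_s_at shows the widest gap.

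Leaving out the LP3 arrays of both varieties called a further 12 probe sets. Ta_4399_1_S1_x_at, singled out after its values were seen, had 10.19, 10.54 and 8.57 on the LP arrays, against 3.65, 3.97 and 3.97 on the CP arrays. LP3 was its lowest LP array yet stood far above all CP arrays. Its difference was 5.91 with LP3 (limma adjusted p = 0.0608, at least 45.9-fold). It was 6.51 without LP3 of Xindong23 (adjusted p = 0.176) and also without the LP3 arrays of both varieties (adjusted p = 0.0428).

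In that fit, the largest falls among the 6 lower probe sets came from 1 stem, closely followed by TaAffx_50224_1_S1_at at -1.46, which had -1.80 with LP3. Ta_5079_1_S1_at had 6.45, 6.35 and 6.87 on the LP arrays, against 7.90, 7.82 and 7.98 on the CP arrays. The groups did not overlap, and LP3 was the LP array nearest to CP. The difference was -1.34 with LP3 (limma adjusted p = 0.252) and -1.5 without the LP3 arrays of both varieties (adjusted p = 0.0428). Ta_5079_1_S1_x_at had -1.35 and -1.5 in the same fits. In Xindong20 the differences of Ta_5079_1_S1_at and Ta_5079_1_S1_x_at were 0.50 and 0.43 with LP3, and 0.18 and 0.11 without it. The difference between the varieties passed without both LP3 arrays (limma adjusted p = 0.0349 for each) but not with all arrays (0.0818 and 0.0871). Ta_5079_2_S1_a_at and Ta_5079_2_S1_x_at overlapped between the groups with all arrays, at -0.30 and 0.12, and without LP3 the first no longer did, at -0.38.

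For Ta_304_2_S1_a_at, also singled out after its values were seen, LP3 decided the result. It had 12.06, 11.51 and 6.02 on LP1, LP2 and LP3, against 9.99, 9.94 and 9.72 on the CP arrays. LP1 and LP2 lay above every CP array and LP3 lay far below them. The difference was -0.02 with LP3 and 1.90 without the LP3 arrays of both varieties (limma adjusted p = 0.0428). Without LP3 of Xindong23 alone it did not pass. In Xindong20 LP3 was low too, at 5.04, against 12.43 and 12.41 on the other LP arrays and 11.43 to 11.75 on the CP arrays. The other probe sets of this stem disagreed, with differences without LP3 from -0.39 for Ta_304_3_S1_at to 1.35 for Ta_304_2_S1_x_at.

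LP1 and LP2 lay 1 log2 unit or more above all CP arrays for 157 probe sets (0.257%), and in 73 of these LP3 lay below all CP arrays. Over all probe sets LP3 lay below all CP arrays for 29.4%. In all 73 the Xindong20 LP3 array was also below all Xindong20 CP arrays, against 33.7% of all probe sets. The LP3 arrays of both varieties were thus low on the same 73 probe sets. Over all probe sets, the deviations of the LP3 arrays from their group means correlated between the varieties at 0.76, against -0.14 for the LP1 arrays and 0.18 for the LP2 arrays.

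Across all probe sets, LP signals lay above every CP signal for 4040 (6.60%) and below every CP signal for 4592 (7.51%). Over LP1 and LP2 alone the counts were 8848 (14.5%) and 10392 (17%), where fewer arrays have to agree. The mean difference reached 2-fold or more upward for 778 probe sets and downward for 599, and without LP3 for 1176 and 548.

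A stricter view asked for a gap of at least 1 log2 unit, 2-fold, between the nearest LP and CP arrays. The LP arrays stood above by such a gap for 42 probe sets and below for 29. The smallest gaps inside were 1.02 and 1.00 and the largest outside were 0.994 and 0.997. These lists were chosen on the Xindong23 values, so their Xindong23 differences, 1.48 to 8.09 for the 42 and -3.27 to -1.15 for the 29, are a description. Gaps of 2 log2 units or more were held by 17 of the 42 and by 1 of the 29, so the wide separations were mostly upward.

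The Xindong20 arrays, not used for this choice, showed which of these differences recurred. The LP3 arrays of both varieties shared deviations (correlation 0.76), so recurrence with LP3 is not free of them. Of the 42 higher probe sets, 32 (76.2%) also had all Xindong20 LP arrays above all Xindong20 CP arrays, against 9.18% of all probe sets, and none had the opposite separation. In the limma fit 22 of the 42 rose in Xindong20, where 0.976% of all probe sets did. Of the 29 lower probe sets, 8 (27.6%) were also separated downward in Xindong20, against 13.6% of all probe sets, and 2 fell there, where 0.776% did (1.75% passed in either direction). The median Xindong20 difference was 1.89 over the 42 and -0.42 over the 29. Without both LP3 arrays the lists held 157 and 53 probe sets (0.257% and 0.0866%), of which 69.4% and 32.1% were separated the same way in Xindong20, against 16.6% and 32.3% of all probe sets. The share of the lower list was then close to that of all probe sets.

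The probe set with the widest downward gap was Ta_21427_1_S1_at, singled out after its values were seen. It had 2.61, 2.71 and 2.18 on the LP arrays, against 5.06, 5.45 and 5.17 on the CP arrays. It was below the array medians on every LP array and above them on every CP array, so the LP signal was at least 1.95-fold lower (measured log2 difference -2.73, limma adjusted p = 0.0608). In Xindong20 it fell by 1.82 (adjusted p = 0.0288). Ta_5603_1_A1_at, likewise singled out, had 4.07, 3.41 and 2.97 on the LP arrays, against 6.01, 6.67 and 7.60 on the CP arrays. Its difference of -3.27 was the largest downward one of the 29 (adjusted p = 0.131, at least 5.63-fold lower).

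Some of the higher probe sets had no such difference in Xindong20. Ta_17022_1_S1_s_at, singled out after its values were seen, had 9.21, 9.88 and 9.33 on the LP arrays, against 7.06, 5.51 and 6.93 on the CP arrays. Its difference was 2.97 in Xindong23 and -0.51 in Xindong20, but the difference between the varieties did not pass (limma adjusted p = 0.121). Ta_17022_1_S1_at of the same stem had 2.53 in Xindong23 and -0.28 in Xindong20 (adjusted p = 0.140 for the difference between the varieties).

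**Figure D3:**
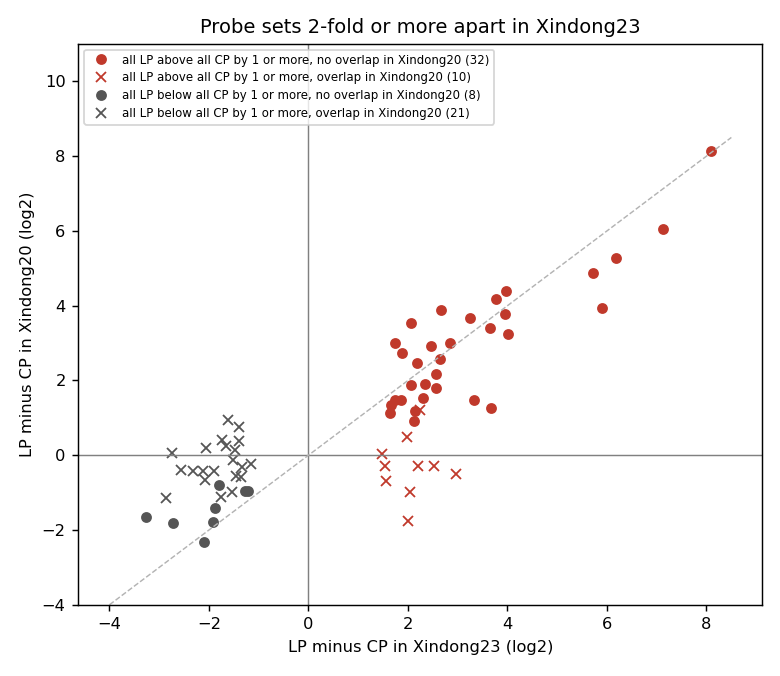
LP minus CP difference (log2) in Xindong23 on the horizontal axis and in Xindong20 on the vertical axis for the 42 probe sets (red) and 29 probe sets (grey) that were 2-fold or more apart between the nearest Xindong23 arrays, with filled circles where the Xindong20 groups did not overlap either and crosses where they did, and the dashed line where both varieties are equal. Of the red points, 32 are circles and the highest lies at 8.09 and 8.13, while most grey points are crosses near 0 on the vertical axis.

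The difference between the varieties, the variety by phosphorus interaction, was called for 81 probe sets (0.132% of those tested, limma adjusted p under 0.05). In 9 of the 81 the Xindong23 change was the larger of the pair. All 9 had a negative difference in Xindong23, -1.4 to -0.70, and a positive one in Xindong20, 0.37 to 0.89, while the difference between the varieties ran from -1.94 to -1.32. None of the 9 passed in Xindong23 on its own (adjusted p 0.0608 to 0.284). For the Xindong20 difference in that fit some of them passed (adjusted p 0.027 to 0.288). All 9 still passed for the interaction without both LP3 arrays (adjusted p 0.0286 to 0.0428), in a fit that called 571 in all (0.933%).

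TaAffx_91772_3_S1_at, singled out as the one with the smallest p, had 5.94, 5.99 and 5.90 in Xindong23 LP, against 6.68, 6.81 and 6.81 in Xindong23 CP. In Xindong20 it had 6.43, 6.11 and 6.47 in LP, against 5.66, 5.39 and 5.64 in CP. The groups did not overlap in either variety and lay in opposite order. The difference was -0.82 in Xindong23 and 0.78 in Xindong20, which differed by -1.60 (SE 0.19, limma adjusted p = 0.0266). On its own the Xindong20 difference passed (adjusted p = 0.027), and the Xindong23 difference did not (adjusted p = 0.154). Ta_14157_1_S1_at, likewise singled out, had 6.51, 6.69 and 6.24 in Xindong23 LP, against 7.79, 7.82 and 8.03 in Xindong23 CP. In Xindong20 it had 7.38, 7.29 and 6.92 in LP, against 6.83, 6.66 and 7.00 in CP, so the groups overlapped there. Its difference was -1.4 in Xindong23 and 0.37 in Xindong20 (interaction -1.77, SE 0.24, adjusted p = 0.0351), and it was among the 6 probe sets that fell in Xindong23 without both LP3 arrays.

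None of the 102 named genes passed in Xindong23, with or without LP3. On the brightest probe set of each gene, 4 genes had an unadjusted p under 0.05, 3 had all LP arrays above all CP arrays and 3 had them below. The 6 make 5.88% of the named genes, against 14.1% of all probe sets. The median difference was 0.07 over the named genes and 0.03 over all probe sets. The genes below are the 10 with the smallest p in each direction, and their values are differences that did not pass.

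The plant defence lectin wheat germ agglutinin, WGA2, had 3.78, 6.25 and 6.01 on the LP arrays, against 4.16, 3.82 and 3.88 on the CP arrays. LP2 and LP3 lay above all CP arrays while LP1 lay just below them, for a difference of 1.4 (SE 0.51, limma adjusted p = 0.708). Without LP1 the difference was 2.18 with an adjusted p of 0.0148, so that 1 array decided whether this gene passed. Serpin-Z2B, a serine protease inhibitor of wheat, had all LP arrays above all CP arrays with a difference of 0.59, but at 2.18 to 3.35 all its signals were below the array medians.

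Chaperone genes had positive differences. FKBP70, a peptidyl-prolyl isomerase, had 9.66, 9.57 and 9.07 on the LP arrays, against 9.32, 8.65 and 8.52 on the CP arrays. LP1 and LP2 lay above all CP arrays and LP3 lay below CP1, for a difference of 0.60 (SE 0.27, limma adjusted p = 0.850). The small heat shock protein gene hsp16.9A had 9.41, 6.04 and 7.54 on the LP arrays, against 6.21, 6.80 and 5.80 on the CP arrays. The spread from LP1 to LP2 exceeded the difference of 1.39 (SE 0.73, adjusted p = 0.944), which was 0.52 without LP1 and 2.20 without LP2. CAT1, a catalase that breaks down hydrogen peroxide, had a difference of 0.33, and ALPb-4A1 one of 0.28.

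Core histones H2A and H2B, which package DNA and are made mostly while cells replicate it, took 4 of the 10 places upward. H2A-2 had a difference of 1.48, wcH2B-8 of 1.33, wcH2B-6 of 1.01 and H2A-3 of 0.94. They differed more between LP arrays than between groups, and without LP2 the differences were 0.84, 0.63, 0.34 and 0.49. The other H2A-3 probe set, Ta_27192_1_S1_s_at, went the opposite way, at -0.45 with LP3 and -0.50 without it (limma adjusted p = 0.843 with LP3). Over the 18 probe sets of 5 such genes, H2A-9 included, the median signal relative to the CP mean was -0.21 on LP1, 2.70 on LP2 and 1.48 on LP3, against -0.28, -0.33 and 0.61 on CP1, CP2 and CP3. LP2 was the highest of the 6 arrays in 16 of the 18, LP1 was the lowest LP array in 15, and CP3 was the highest CP array in 17. Over all 61179 probe sets the same counts were 8131, 18997 and 18997. Near-identical histone transcripts can bind each other's probes, so they are not independent. The 6 tubulin genes, for the subunits of microtubules, had smaller differences of -0.48 to 0.22, 3 positive and 3 negative, but partly the same order of arrays. On the brightest probe set LP2 was the highest LP array in 4 of the 6, LP1 the lowest in 4, and CP3 the highest CP array in 5. Over all 61179 probe sets these counts were 13124, 18997 and 18997. For tubb2, chosen after its values were seen, the signals were 10.48, 12.63 and 11.88 on LP1, LP2 and LP3, against 10.91, 11.50 and 12.15 on CP1, CP2 and CP3.

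**Figure D4:**
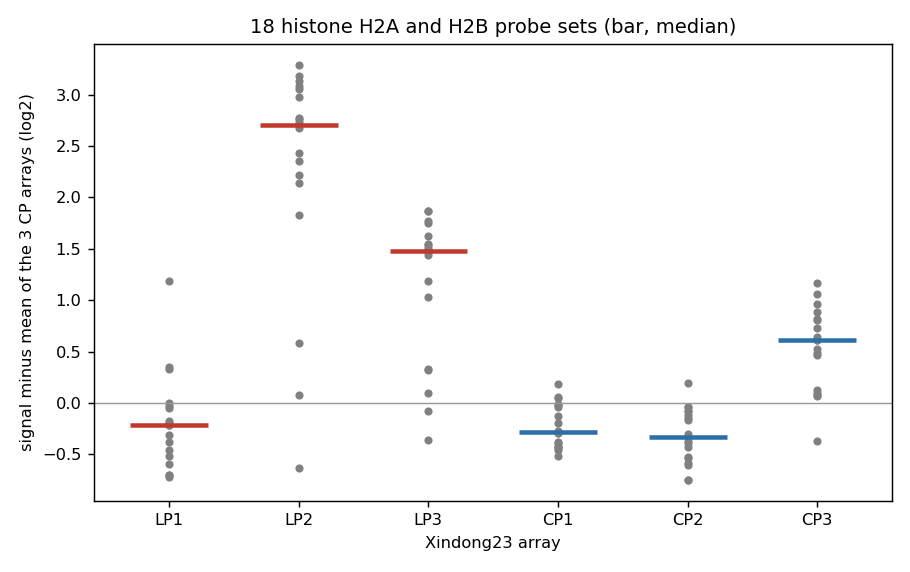
Signal of 18 histone H2A and H2B probe sets on each Xindong23 array as the difference from the mean of the 3 CP arrays (log2), with 1 point per probe set and the median as a bar, red for LP and blue for CP. LP2, with a median of 2.70, stands above LP3 at 1.48, while LP1 at -0.21 lies near CP1 and CP2.

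Of the genes with a negative difference, rbcl had the smallest p. It encodes the large subunit of Rubisco, the carbon-fixing enzyme of chloroplasts, and is carried by the plastid genome, which root plastids hold too. Its brightest probe set had 8.82, 9.39 and 8.16 on the LP arrays, against 10.37, 9.98 and 9.89 on the CP arrays. All LP arrays lay below all CP arrays, with a difference of -1.29 (SE 0.41, limma adjusted p = 0.593), and -0.98 without LP3. It was -0.29 with the poly-A spike level as covariate (adjusted p = 0.629) and -1.19 with the ubiquitin difference as covariate (adjusted p = 0.0450). TaAffx_128414_1_A1_x_at, another rbcl probe set, had -1.32, and TaAffx_128414_181_S1_at had 0.74 with all LP arrays above all CP arrays. The remaining rbcl probe sets ran from -0.47 to 0.30, and most were below the array medians. Of the brighter ones, Ta_3807_1_A1_at had -0.47 with overlap (-0.03 without LP3) and TaAffx_128414_196_S1_at had 0. The probe sets of this gene thus disagreed. The nuclear leaf markers OEE1 and OEE2, subunits of the oxygen-evolving complex, lay near the array medians at 3.71 to 4.92 and 4 to 4.58 on the LP arrays, against 3.68 to 4.10 and 3.85 to 4.12 on the CP arrays.

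DMAS1 encodes the synthase of deoxymugineic acid, with which grass roots bind iron, and had 8.05, 8.29 and 8.11 on the LP arrays, against 8.36, 9.04 and 9.82 on the CP arrays. The LP arrays were close together and below the widely spread CP arrays, for a difference of -0.92 with LP3 and -0.90 without it (SE 0.42 with LP3, limma adjusted p = 0.869). It was -0.55 without CP3 and -1.28 without CP1. Its other probe sets had -0.50 and -0.52 and overlapped. DMAS1 was the only root marker sought that was on the annotated part of the array. The plasma membrane proton pump ha1, which powers nutrient uptake, had -0.20, -0.32 and -0.48 on its 3 probe sets. Without LP3 these were -0.29, -0.14 and -0.15, so the larger differences rested mostly on LP3. On each probe set all LP arrays lay below all CP arrays, but on the brightest LP3 and CP3 both read 12.22.

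AdSS, adenylosuccinate synthetase of purine synthesis, had a difference of -0.36. The others among the 10 were Glc1 at -0.70, Hmgb3 at -0.51, Tubb4 at -0.43, la-17 at -0.26, WZF1 at -0.17 and Trx-M at -0.12. For Glc1, Hmgb3 and Tubb4, LP3 was by far the lowest array. Glc1 had 10.83, 10.31 and 8.43 on LP1, LP2 and LP3, against 10.48, 10.60 and 10.57 on the CP arrays, and its difference without LP3 was 0.02.

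**Figure D5:**
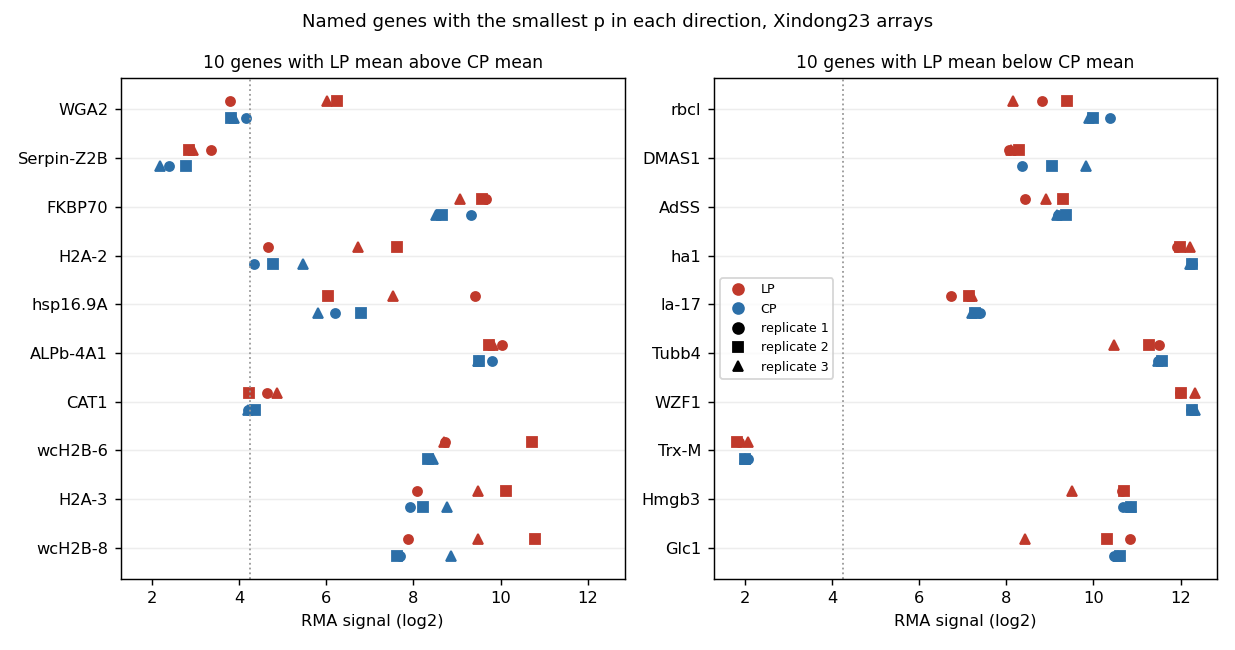
Normalized signal (log2) of the 10 named genes with the smallest p in each direction on the 6 Xindong23 arrays, LP red and above, CP blue and below it, with 1 marker shape per replicate number and the mean array median of the CP arrays dotted. The histone genes, WGA2 and hsp16.9A spread more between LP arrays than between the group means, and LP3 (triangles) alone lies low for Tubb4, Hmgb3 and Glc1.

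Of 20 gene lists sought by symbol, 18 held at least 1 named gene, and 0 members passed in either direction. Histone and tubulin genes together had a median difference of 0.22 over 11 genes, 8 positive and 3 negative. The dehydrin and LEA list, which marks cells under water deficit, had 5 positive of 5 genes with a median of 0.10, but 2 positive and a median of -0.13 without LP3. LEA1, its member with the largest difference at 0.92, had 8.90, 6.65 and 8.53 on the LP arrays, against 6.93, 8.18 and 6.21 on the CP arrays, so the groups overlapped. The 2 chaperone genes had a median of 1.00, and the 7 genes of lectins, serpins and pathogenesis-related proteins one of 0.03. The photosynthesis list had 0.11 over 5 genes, 4 of them with a mean over the 6 arrays below the array medians, and the grain storage protein list, a marker of seed tissue, 0.12 over 7 genes. The phytosiderophore list held DMAS1 alone, at -0.92. The other 11 lists, with 1 to 3 genes each, had medians of -0.20 to 0.28. Pgk-1, the glycolytic phosphoglycerate kinase of the carbohydrate list, had the largest difference there at 0.52. The median over all probe sets was 0.03.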

How the data were processed

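Root RNA was measured on Affymetrix wheat arrays. Trizol was used for extraction, and 100 ng of total RNA gave the biotin-labelled cRNA of an array, per the labels' protocols. The authors deposited 1 table of normalized values, treated here as log2. Per the submitters' processing notes, Affymetrix Expression Console 1.4.1 and RMA were used, in an order they do not state. RMA removes background, equalises the distributions of the arrays and combines probes into probe sets, so a shift shared by most transcripts would be lost. The sources used here do not state the log base, probe library, filters or build. No positions or sequences are printed. Arrays have no read depth, so their number limits the precision.

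Of 61290 probe sets, 111 controls were left out and 61179 tested without a filter. Genes came from a platform annotation, with 1273 probe sets on 1 gene, 0 on several and 59906 without one. Entrez IDs matched 770 of the 771 genes to RefSeq. Probe set IDs are printed with _ for the array's dots. With limma 3.58.1 in R 4.3.3, all 12 arrays were fitted with a mean for each group (8 residual degrees of freedom, 2.28 prior). The fit was tested on simulated data with independent arrays and the same spread in every group. That test could not show how the unequal LP and CP spreads or the shared LP3 deviations affect the calls. Two-sided p-values were adjusted by Benjamini-Hochberg over all probe sets, with a threshold of 0.05, and they rest on the spread between these arrays. "Rose" and "fell" are used of what passed. Fold changes are 2 raised to the log2 difference. A group mean below the lowest array median (4.24) was taken as dim, and "at least" folds use, per array, the higher of the array's median and the probe set's value.

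The named genes are every called probe set with its ID stem, the 10 genes with the smallest p in each direction on the probe set with the highest mean, members of lists and markers, and the largest changes without both LP3 arrays. Pattern matches to another gene's name were left out of lists. The members and lists were chosen with earlier results of these data known. Probe sets said to be singled out fall outside the rule, as do H2A-9, tubb2 and the rbcl probe sets besides the brightest.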

Additional observations from a re-analysis of the deposited data

Results flagged for a closer look

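The low-phosphorus response of TaAffx_91772_3_S1_at differed between the varieties by -1.60 (log2, Xindong23 minus Xindong20, limma adjusted p = 0.0266), with a negative difference in Xindong23 and a positive one in Xindong20. For Ta_14157_1_S1_at the responses differed by -1.77 (adjusted p = 0.0351), in the same order. Both were marked because the test of the difference itself passed. They had been singled out from the 81 probe sets called by that same test, so the mark adds nothing to it.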

How the results depend on the processing

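The count of 4 called probe sets was 0 with the Xindong23 arrays alone, 0 with the replicate block, 8 among probe sets above the median level, 16 without replicate 3 of both LP groups, 22 with a poly-A spike covariate, 32 with array weights and 192 with the ubiquitin 3' minus 5' difference as a covariate. It was 4 with median centring, 3 with quantile normalization, 5 with a trended variance, 4 with a robust variance and 4 with 1 probe set per gene. Leaving out 1 Xindong23 array gave 0 to 6. Same-numbered LP and CP arrays deviated from their group means with correlations of 0.35, -0.16 and 0.19. With 3 arrays per group, these values cannot decide whether the replicate numbers pair the samples. Between the varieties, the LP3 arrays correlated at 0.76.

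Without LP3 of Xindong23, all-above and all-below counts were 8848 and 10392, and the control differences, 0.24 for ubiquitin and 0.57 for glucose-6-phosphate dehydrogenase, turned to -0.36 and -0.43. The interaction was called for 0 of the probe sets the naming rule gave. Without both LP3 arrays it was called for 2 of them, Ta_5079_1_S1_at and Ta_5079_1_S1_x_at. Glc1, at -0.70, was -1.18 to 0.02 when 1 array was left out, turned to 0.02 without LP3 and to 1.47 with the spike covariate, which also turned Tubb4 to 0.54 and Hmgb3 to 1.04. Ta_304_2_S1_a_at, at -0.02, was -1.12 to 1.90 when 1 array was left out, 1.90 without both LP3 arrays, 4.93 with the spike covariate, 0.53 with the ubiquitin covariate, 0.88 with array weights, and 0.04 and 0.01 without CP1 and CP2. rbcl, at -1.29, passed with the ubiquitin covariate at -1.19 (adjusted p = 0.0450) and was -0.29 with the spike covariate (adjusted p = 0.629). The cause was not tested. With 3 arrays per group, signals below the array medians limit the folds that can be given.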
